A study of Mus musculus with 9 samples.

Results

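The genes examined are those of ribosome biogenesis and RNA polymerase I, in red cell precursors of mouse embryos with 0, 1 or 2 copies of the Th3 allele. They were chosen by symbol: the RNA polymerase I subunits that carry Polr1 symbols, the nucleolar proteins of the Utp, Nop and Rrp series, and 10 more (Fbl, Dkc1, Ncl, Npm1, Bop1, Pes1, Wdr12, Nolc1, Gar1 and Nhp2). The rule found 40 genes among the 19938 that had a probe set listed for a single gene symbol. Each gene was read from its brightest probe set, and 39 of the 40 passed the filter on low values. The exception was Utp20, a large scaffold protein of early ribosomal precursors.

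Gene expression was measured on whole-transcript arrays in erythroblasts from fetal liver at E14.5, with 3 wild type, 3 Th3/+ and 3 Th3/Th3 samples and 1 array each. Th3 deletes the adult beta-globin genes and models beta-thalassemia: Th3/+ carries it on 1 chromosome and Th3/Th3 on both. All embryos came from crosses between Th3/+ parents, on a background of 129SV backcrossed for 9 generations to C57BL/6, and the cells were sorted by FACS as positive for CD71 and Ter119 with high forward scatter, per the labels. The allele is constitutive, so every cell of the embryo carries it, and the labels do not say whether a sample was 1 embryo or a pool. The brighter of 2 probe sets listed jointly for the adult beta-globin genes read 13.81, 13.86 and 13.84 on the wild type arrays, 13.81, 13.76 and 13.76 on those of Th3/+ and 9.83, 10.09 and 8.49 on those of Th3/Th3. Th3/Th3 thus stood far below the others at the targeted locus, while Th3/+ and wild type touched at a level near the top of the scale.

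Ribosomal RNA is transcribed in the nucleolus by RNA polymerase I as 1 long precursor. Small nucleolar ribonucleoproteins (snoRNPs) guide its chemical modification: those of the box C/D class methylate riboses, and those of the box H/ACA class convert uridine to pseudouridine. The small subunit processome then folds and cleaves the part that becomes the small ribosomal subunit, and a separate series of assembly factors matures the large one. Erythroid precursors make ribosomes at a high rate before they wind the pathway down late in maturation, and inherited defects of ribosome production are known for causing anemia.

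In Th3/Th3 cells 5 of the 39 genes were higher than in wild type and 1 was lower (limma, adjusted p under 0.05). Those that rose were Nop53 (2.10-fold), Polr1d (1.91-fold), Polr1c (1.85-fold), Nop10 (1.77-fold) and Utp11 (1.75-fold), and Dkc1 fell (1.69-fold). The share of genes higher, 12.8%, stood beside 7.31% of all 17742 probe sets tested, and the share lower, 2.56%, beside 4.98%. In either direction the call rate was 15.4% among these genes and 12.3% among all probe sets. Most of the pathway therefore did not pass the test, among them the rRNA methyltransferase gene Fbl, the nucleolar phosphoproteins Npm1 and Ncl and the catalytic polymerase subunits Polr1a and Polr1b. In Th3/+ cells 0 of the 39 genes were called against wild type.

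The differences leaned upward in Th3/Th3 cells: 31 of the 39 genes had a positive difference from wild type, against 50.0% of all probe sets, and their median difference was 0.14 (log2), against 0.00 over all probe sets. The 3 Th3/Th3 arrays lay wholly above the 3 wild type arrays for 10 of the genes and wholly below for 1, where 15.4% and 12.1% of all probe sets did so. The values of single arrays bear on these counts. Th3/+ replicate 1 and Th3/Th3 replicate 1 stood apart on the second principal component of all probe sets (scores of 20.53 and 25.54, against -14.89 to 7.71 on the others). Th3/+ replicate 1 was the lowest of its genotype for 31 of the 39 genes (38.6% of all probe sets), and Th3/Th3 replicate 1 for 27 (30.1%). Among the wild type arrays, replicate 2 was the lowest for 22 (27.9%). Its median over the 39 genes was -0.07 from the wild type mean. Without Th3/+ replicate 1 and Th3/Th3 replicate 1, 10 genes were higher and 1 lower, with Nop14, Nop16, Utp14a, Utp3 and Wdr12 joining the 5 named above. The share of all probe sets called in that setting is not reported here, so the gain cannot be read as particular to these genes.

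The upstream sequences of called genes are shown because 3 of the genes that rose and the 1 that fell had an entry among the RefSeq promoters (GRCm38.p6). Each is the 250 bases before the annotated start, 5′ to 3′ on the gene's strand, with a match to 1 of 7 motifs in capitals. Polr1c lies at chr17:46248046-46248295 (minus strand), Polr1d at chr5:147077096-147077345 (plus), Nop10 at chr2:112261676-112261925 (plus) and Dkc1 at chrX:75095604-75095853 (plus).
Polr1c: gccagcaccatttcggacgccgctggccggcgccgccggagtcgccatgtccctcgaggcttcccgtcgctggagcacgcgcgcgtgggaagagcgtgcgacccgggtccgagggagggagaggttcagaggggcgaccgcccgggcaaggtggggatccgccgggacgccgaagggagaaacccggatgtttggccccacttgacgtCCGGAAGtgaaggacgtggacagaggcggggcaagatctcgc
Polr1d: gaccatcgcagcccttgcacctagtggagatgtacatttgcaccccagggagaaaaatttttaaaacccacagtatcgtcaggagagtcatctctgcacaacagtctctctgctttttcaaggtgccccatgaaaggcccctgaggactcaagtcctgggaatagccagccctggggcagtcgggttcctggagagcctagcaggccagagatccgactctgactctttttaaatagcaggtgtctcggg
Nop10: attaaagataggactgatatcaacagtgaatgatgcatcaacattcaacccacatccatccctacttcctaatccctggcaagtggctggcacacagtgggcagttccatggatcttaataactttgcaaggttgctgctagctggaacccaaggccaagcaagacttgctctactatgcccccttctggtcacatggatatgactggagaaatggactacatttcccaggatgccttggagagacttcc
Dkc1: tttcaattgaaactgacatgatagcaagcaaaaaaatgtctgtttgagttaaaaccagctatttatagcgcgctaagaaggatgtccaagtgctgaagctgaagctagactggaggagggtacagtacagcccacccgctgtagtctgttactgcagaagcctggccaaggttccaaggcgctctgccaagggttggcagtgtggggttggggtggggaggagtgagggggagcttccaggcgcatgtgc
The motifs were searched on both strands: the E-box CACGTG, the ETS motif CCGGAAG, the YY1 motif AAGATGGC, the NRF1 motif (GCGC, any base, then TGCGC), the GATA motif GATAA, the heat shock motif GAANNTTC and the antioxidant response motif TGACNNNGC. Of the 4 windows, that of Polr1c held 1 match, the ETS motif starting 42 bases before the gene's start, and the others held 0. Polr1c's window was also richer in G and C, at 70.4%, than those of Polr1d (52.8%), Dkc1 (52.0%) and Nop10 (47.2%). Promoters were matched for 32 of the 40 genes, Utp11 and Nop53 not among them. The ETS motif was found for 9 of the 32 genes (28.1%), including Gar1, Nhp2, Nop2 and Utp3, against 7.83% of 27025 genes with a promoter, and the E-box for 3 (9.38%, against 6.86%). GATAA was found for 4 (12.5%, against 25.5%), the NRF1 motif for 3 (9.38%, against 4.23%), TGACNNNGC for 2 (6.25%, against 11.5%), GAANNTTC for 2 (6.25%, against 7.73%) and AAGATGGC for 0 (against 1.83%). These windows had a median G and C content of 57.6%, against 52.4% for all.

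RNA polymerase I is built on a pair of large catalytic subunits, Polr1a and Polr1b. A heterodimer of Polr1c and Polr1d holds the core together and is also part of RNA polymerase III, which transcribes tRNA and 5S rRNA genes. Both genes of the heterodimer rose in Th3/Th3 cells. Polr1c read 8.64, 8.34 and 8.52 on the wild type arrays, 8.27, 8.64 and 8.47 on those of Th3/+ and 9.57, 9.42 and 9.18 on those of Th3/Th3 (log2 values, replicates 1 to 3). The Th3/Th3 arrays were all above the rest, while wild type and Th3/+ overlapped. The difference from wild type was 0.89 (SE 0.15, limma adjusted p = 0.00573) and from Th3/+ 0.93 (adjusted p = 0.00729). Polr1d read 10.52, 10.50 and 10.42 on the wild type arrays, 10.16, 10.78 and 10.87 on those of Th3/+ and 11.39, 11.53 and 11.34 on those of Th3/Th3. Here too the Th3/Th3 arrays did not overlap the others, and the Th3/+ arrays spread on both sides of wild type. It was 0.94 above wild type (SE 0.17, adjusted p = 0.00648) and 0.81 above Th3/+ (adjusted p = 0.0188). A dimmer probe set listed for Polr1d differed by 0.43 (adjusted p = 0.0612), again without overlap. That probe set sits among 20 named neighbours of which 0 are on the chromosome of Polr1d, and what this does to its reading was not tested.

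The other Polr1 genes were not called. Polr1a, which carries the active site, read 5.58, 5.29 and 5.67 on the wild type arrays, 5.50, 5.83 and 5.92 on those of Th3/+ and 5.12, 5.67 and 6.25 on those of Th3/Th3. The Th3/Th3 arrays spanned the range of both other genotypes (difference from wild type 0.17, adjusted p = 0.741). Polr1b was near the 40th percentile of the arrays (4.52 to 4.62), at 4.83, 4.57 and 4.45 on the wild type arrays, 4.52, 4.53 and 4.53 on those of Th3/+ and 4.79, 4.53 and 4.55 on those of Th3/Th3, with a difference of 0.00 (adjusted p = 0.989). Polr1e, the PAF53 subunit that helps start transcription, read 4.61, 4.99 and 5.02, then 4.52, 4.76 and 5.05, then 4.99, 5.23 and 5.14, with overlap between the genotypes (difference 0.25, adjusted p = 0.354).

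**Figure D1:**
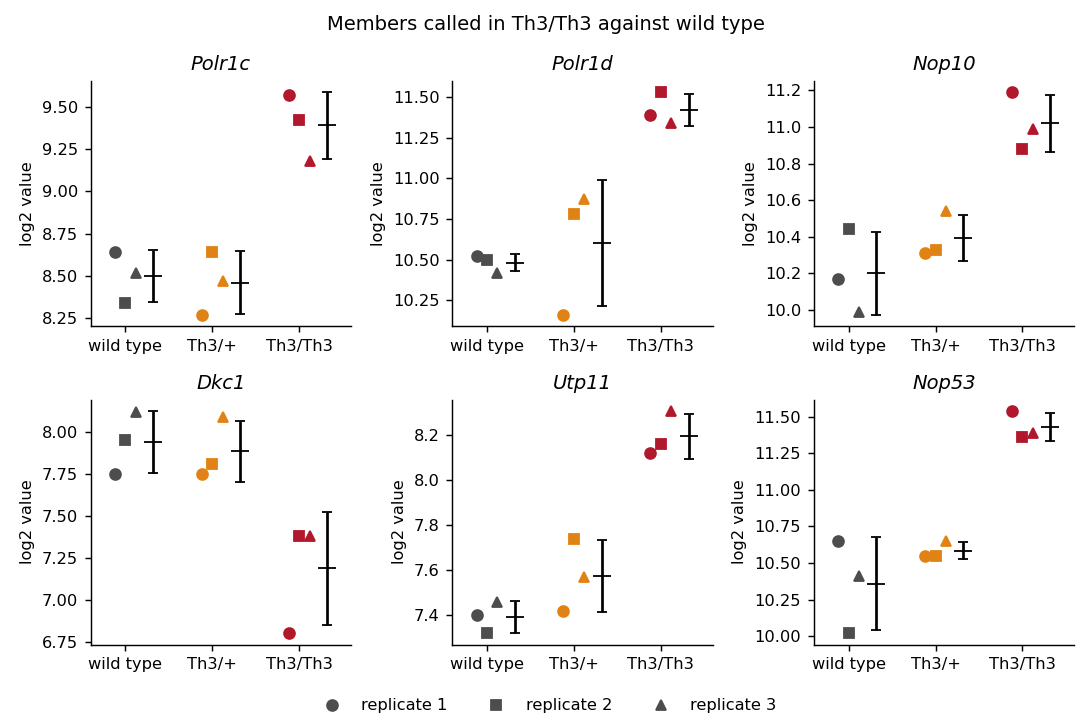
Log2 values of the 6 genes called in Th3/Th3 against wild type, by genotype, with 1 symbol per replicate number and the mean with its SD in black. For each gene the 3 Th3/Th3 arrays lie outside the range of both other genotypes, above it for Polr1c, Polr1d, Nop10, Utp11 and Nop53 and below it for Dkc1; each vertical axis has its own range.

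Other subunits of the polymerases, taken from lists outside the rule, also held called and uncalled genes. Of all probe sets, 7.31% were higher in Th3/Th3 than in wild type and 4.98% were lower. Of 3 RNA polymerase I subunits listed under older symbols, Znrd1, the subunit that helps cleave the transcript, rose by 0.73 (adjusted p = 0.00523), while Twistnb and Cd3eap differed by 0.14 and -0.10. Of 5 subunits shared by all the nuclear polymerases, 2 rose, Polr2f by 0.83 and Polr2e by 0.62 (adjusted p = 0.0137 and 0.0178). RNA polymerase III had 3 of 10 higher and 0 lower: Crcp by 1.41, Polr3g by 0.67 and Polr3c by 0.55 (adjusted p = 0.00223, 0.0215 and 0.0312). Its large subunits Polr3a and Polr3b differed by -0.29 and -0.39 without being called. RNA polymerase II, which makes mRNA, had 4 of 7 higher and 0 lower, led by Polr2i (1.26), Polr2g (1.12) and Polr2d (0.51). Its largest subunit Polr2a differed by -0.13 (limma adjusted p = 0.784). Polr2b and Polr2c differed by 0.34 and -0.41 and were not called either (limma adjusted p = 0.267 and 0.125). Transcription factors of RNA polymerase I went both ways, 1 higher and 2 lower of 12 (8.33% and 16.7%). The share higher was near that of all probe sets. Taf1b, a subunit of the promoter selectivity factor SL1, rose by 0.77. Ubtf, the upstream binding factor that keeps rRNA genes open, fell by 0.73, from 9.51 ± 0.12 to 8.77 ± 0.09 (SD, n = 3; adjusted p = 0.00818). Topoisomerase I (Top1), which also serves the other polymerases, fell by 1.27. Without the 2 arrays that stood apart, the counts of this list were 4 higher and 3 lower, a setting whose share of all probe sets is not reported here.

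**Figure D2:**
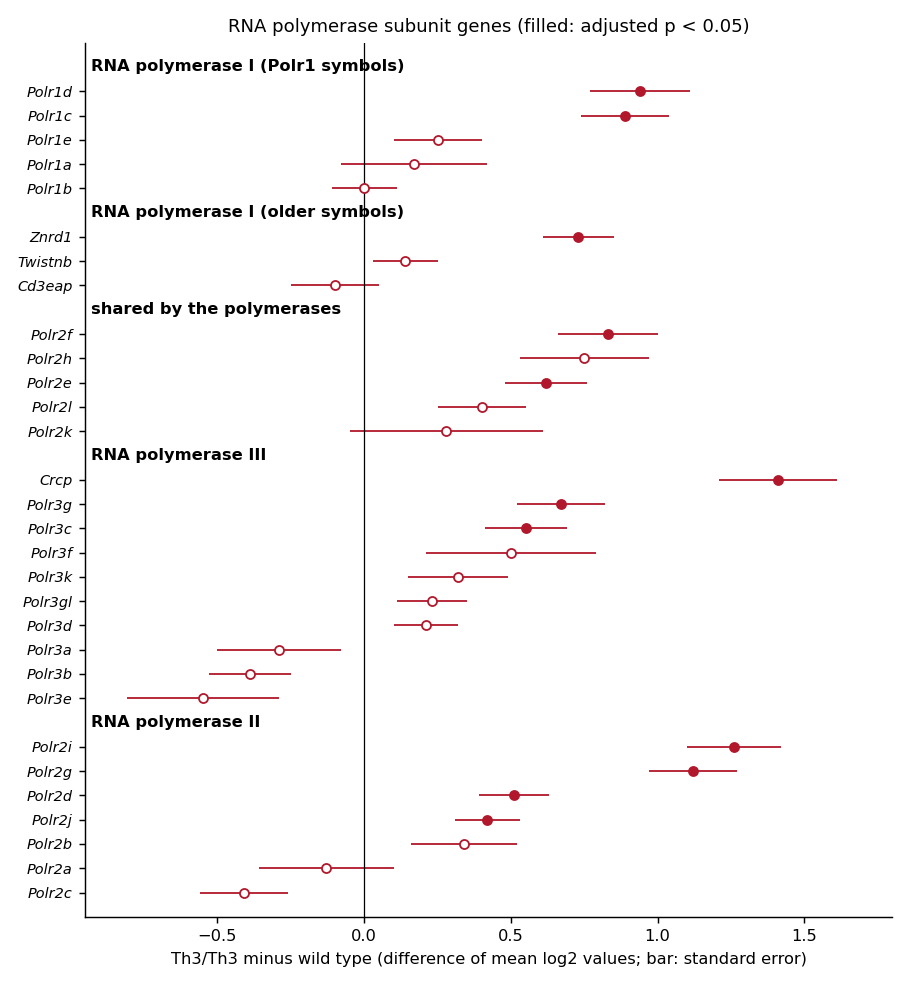
Th3/Th3 minus wild type for the subunit genes of the nuclear RNA polymerases, as differences of mean log2 values with their standard error (filled points: limma adjusted p under 0.05). Polr1c and Polr1d lie at 0.89 and 0.94, while the largest subunits of RNA polymerases I, II and III (Polr1a, Polr2a and Polr3a) lie at 0.17, -0.13 and -0.29. Polr1b, Polr2b and Polr3b lie at 0.00, 0.34 and -0.39, and Polr2c lies at -0.41.

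The box H/ACA snoRNP consists of the pseudouridine synthase dyskerin (Dkc1) and the small proteins Nop10, Nhp2 and Gar1, and the same proteins are part of telomerase. Of these 4 genes, Nop10 rose, Dkc1 fell, and Nhp2 and Gar1 were not called. Dkc1 read 7.75, 7.95 and 8.12 on the wild type arrays, 7.75, 7.81 and 8.09 on those of Th3/+ and 6.80, 7.38 and 7.38 on those of Th3/Th3. The Th3/Th3 arrays were all lower than the others, replicate 1 lowest. Dkc1 fell by 0.76 against wild type (SE 0.19, limma adjusted p = 0.0282), and its difference from Th3/+ was -0.70 (adjusted p = 0.0546). The call against wild type was lost without wild type replicate 2 (-0.75, adjusted p = 0.0841) or wild type replicate 3 (-0.67, adjusted p = 0.102), and when the fit held those genotypes alone (-0.76, adjusted p = 0.0623). Dkc1 is 1 of 2 X-linked genes of the set, with Utp14a. Xist, the RNA of the inactive X, was high (8.85 to 9.63) on 4 arrays, namely replicate 1 of wild type, replicate 2 of Th3/+ and both replicate 1 and replicate 2 of Th3/Th3, and low (3.74 to 4.14) on the rest. Its part in the Dkc1 difference was not tested.

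Nop10, which binds beside the catalytic site of dyskerin, read 10.17, 10.44 and 9.99 on the wild type arrays, 10.31, 10.33 and 10.54 on those of Th3/+ and 11.19, 10.88 and 10.99 on those of Th3/Th3. It rose by 0.82 against wild type (SE 0.14, adjusted p = 0.00486) and by 0.63 against Th3/+ (adjusted p = 0.0245), with no overlap in either case. Nhp2, which binds the guide RNA, read 7.91, 7.81 and 8.46 on the wild type arrays, 7.65, 7.97 and 8.76 on those of Th3/+ and 8.61, 8.68 and 8.90 on those of Th3/Th3. The Th3/Th3 arrays were above wild type but overlapped Th3/+, and the difference from wild type of 0.67 was not called (SE 0.28, adjusted p = 0.164). Gar1, which helps release the product, read 6.29, 5.99 and 6.34, then 6.07, 6.31 and 6.67, then 6.15, 6.27 and 6.29, with overlap throughout (difference 0.03, adjusted p = 0.935).

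None of the 3 genes of the box C/D snoRNP was called (limma, smallest adjusted p = 0.793, and 0 with an unadjusted p under 0.05). Fibrillarin (Fbl), its methyltransferase, read 9.62, 8.94 and 9.57 on the wild type arrays, 8.50, 9.48 and 9.78 on those of Th3/+ and 8.92, 9.67 and 9.48 on those of Th3/Th3. The genotypes overlapped fully (difference -0.02, SE 0.34, adjusted p = 0.985), and its spread within a genotype, 0.50, was among the widest of the set. Its probe set sits among 20 named neighbours of which 1 is on the chromosome of Fbl. The other probe set listed for Fbl, with 20 of 20 neighbours on that chromosome, was dimmer and differed by 0.20 (adjusted p = 0.354), and neither was called. Nop56, a scaffold protein of the particle, read 8.87, 8.80 and 9.05, then 8.16, 8.86 and 9.28, then 8.52, 8.55 and 9.19, again with overlap (difference -0.15, adjusted p = 0.793). Its partner Nop58 differed by 0.06. Of factors that assemble snoRNPs, from a list outside the rule, 4 of the 9 that passed the filter rose and 0 fell, with a median difference of 0.48. The 4 are 44.4% of those tested, beside 7.31% of all probe sets. Znhit3 rose by 1.07 (adjusted p = 0.00173) and the paired ATPases Ruvbl1 and Ruvbl2 by 0.93 and 0.48.

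None of the 3 abundant organisers of the nucleolus was called (limma, smallest adjusted p = 0.517, and 0 with an unadjusted p under 0.05). Nucleophosmin (Npm1), a chaperone of the outer nucleolar layer, read 10.10, 10.09 and 10.04 on the wild type arrays, 10.11, 10.11 and 10.30 on those of Th3/+ and 9.96, 10.14 and 10.18 on those of Th3/Th3. Its difference from wild type was 0.02 with a narrow error (SE 0.10, adjusted p = 0.947). The array also holds 3 probe sets listed for both Npm1 and the near-identical Gm15484, which were not used. Nucleolin (Ncl), which binds the rRNA precursor, read 10.55, 10.41 and 10.71, then 10.51, 10.86 and 10.82. On the Th3/Th3 arrays it lay -0.56, 0.01 and -0.05 from the wild type mean, with replicate 1 the lowest of all (difference -0.20, adjusted p = 0.517). Nolc1, a chaperone that moves snoRNPs between Cajal bodies and the nucleolus, read 7.50, 7.24 and 7.45, then 7.07, 7.49 and 7.48, then 7.25, 7.69 and 7.59 (difference 0.12, adjusted p = 0.730). For all of these genes the genotypes Th3/Th3 and wild type overlapped.

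Of 15 genes of small subunit assembly, 14 passed the filter and 1 rose in Th3/Th3 cells, a share of 7.14% beside 7.31% of all probe sets. It was Utp11, a component of the processome that forms on the U3 snoRNA. Utp11 read 7.40, 7.32 and 7.46 on the wild type arrays, 7.42, 7.74 and 7.57 on those of Th3/+ and 8.12, 8.16 and 8.31 on those of Th3/Th3. The wild type and Th3/Th3 arrays were each tightly grouped and far apart. The difference was 0.80 from wild type (SE 0.13, limma adjusted p = 0.00362) and 0.62 from Th3/+ (adjusted p = 0.0182). The rest had differences from wild type between -0.15 and 0.59, none called.

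The next largest was that of Utp14a, which activates the helicase that frees U3, at 5.34, 5.07 and 5.48 on the wild type arrays, 5.35, 5.86 and 5.80 on those of Th3/+ and 5.06, 6.45 and 6.13 on those of Th3/Th3. Replicate 1 of Th3/Th3 was the lowest of all 9 arrays and replicate 2 the highest (difference 0.59, SE 0.31, adjusted p = 0.281). Nop14, a core processome factor, spread the most of the tested genes (SD within a genotype 0.51), with 7.13, 6.63 and 6.98, then 6.58, 7.24 and 7.27, then 6.54, 7.45 and 8.05 (difference 0.44, adjusted p = 0.494). Here again Th3/Th3 replicate 1 lay below all wild type arrays. Without that array and Th3/+ replicate 1, Utp14a and Nop14 were called, with differences of 0.99 and 0.84 (adjusted p = 0.00761 and 0.044). Utp3, also known as Sas10, read 10.98, 11.03 and 10.61, then 10.54, 10.97 and 10.79, then 10.89, 11.47 and 11.44, a difference of 0.39 (adjusted p = 0.222), and was called in the same setting (0.58, adjusted p = 0.0348).

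Toward the low end, Utp25, a helicase-like processome factor, read 6.66, 6.66 and 6.68, then 6.42, 7.0 and 6.66, then 6.38, 6.47 and 6.70 (difference -0.15, adjusted p = 0.588). Utp4, or cirhin, which couples the processome to transcription of rRNA, read 6.37, 6.34 and 6.37, then 5.82, 6.34 and 6.34, then 6.04, 6.35 and 6.62 (difference -0.02, adjusted p = 0.955). Both overlapped between genotypes. Of the remaining genes of the group, Rrp36, Nop9, Utp18, Rrp12, Utp6, Rrp9, Utp15 and Utp23 differed from wild type by 0.06 to 0.34. Utp20, left out by the filter, read 4.31 to 4.86 in wild type, 4.48 to 4.59 in Th3/+ and 4.45 to 4.54 in Th3/Th3. Further processome factors from a list outside the rule had 4 of 30 higher and 1 lower (median 0.14). These are 13.3% and 3.33%, beside 7.31% and 4.98% of all probe sets. Ngdn rose by 1.25 (adjusted p = 0.000656) and Fcf1, the putative nuclease of an early cleavage, by 0.74, while Rcl1 fell by 1.01. Of 10 late factors, 2 rose, the nuclease Nob1 by 1.01 and the kinase Riok2 by 1.21, and the kinase Riok3, known for its high level in maturing erythroid cells, fell by 0.54.

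**Figure D3:**
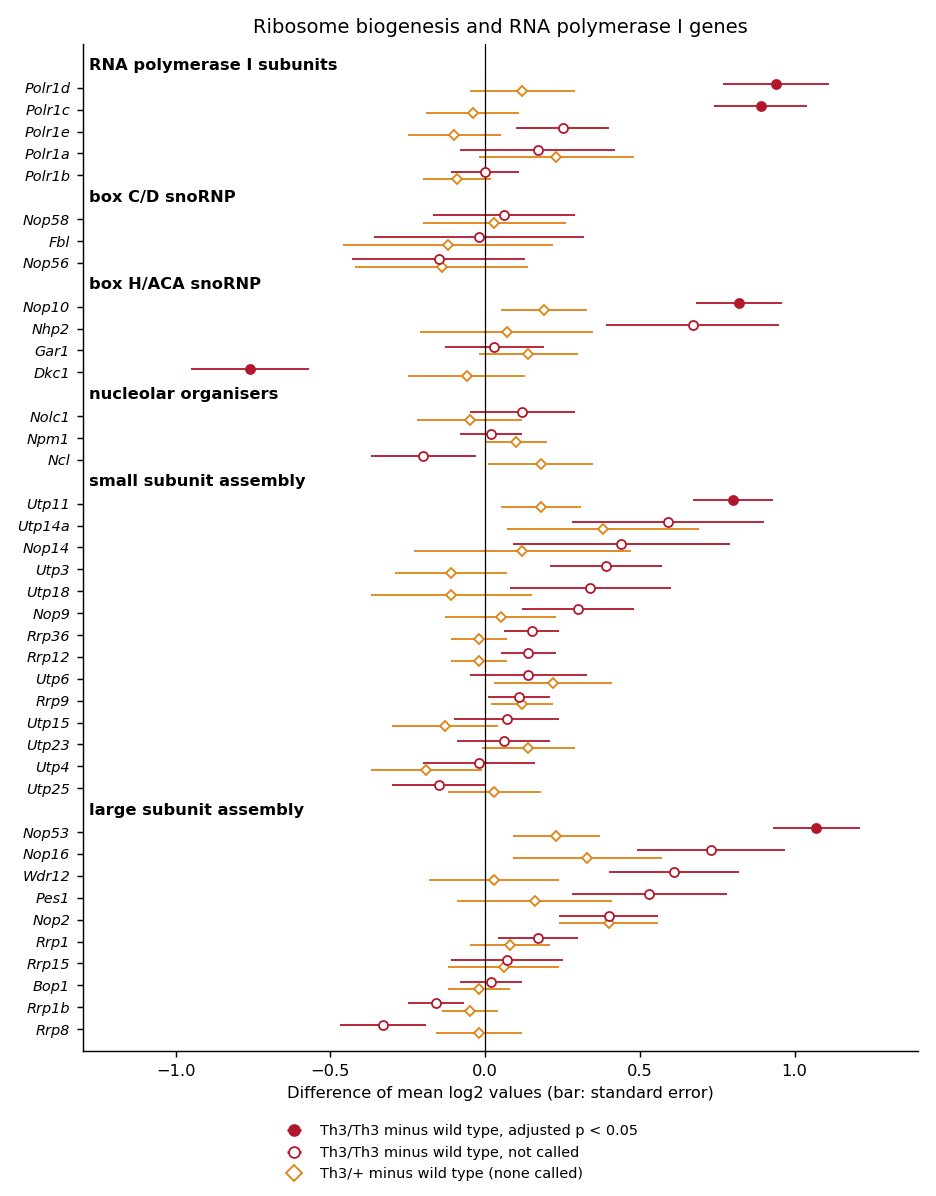
Differences from wild type of the 39 genes tested, by role, as differences of mean log2 values with their standard error: Th3/Th3 in red (filled where the limma adjusted p was under 0.05) and Th3/+ in orange. The 5 genes that rose in Th3/Th3 lie between 0.80 and 1.07 and Dkc1 lies at -0.76, while the Th3/+ differences lie between -0.19 and 0.40.

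Large subunit assembly held the gene with the largest rise. Nop53, also called PICT1, brings the RNA exosome to the precursor of the large subunit and binds the 5S ribonucleoprotein that restrains MDM2. It read 10.65, 10.02 and 10.41 on the wild type arrays, 10.55, 10.55 and 10.65 on those of Th3/+ and 11.54, 11.36 and 11.39 on those of Th3/Th3. Wild type and Th3/+ overlapped, and all Th3/Th3 arrays stood above both. Nop53 rose by 1.07 against wild type (SE 0.14, limma adjusted p = 0.0018) and by 0.85 against Th3/+ (adjusted p = 0.00856). Of the other 9 genes of the group, 0 were called, although 4 of them had an unadjusted p under 0.05 (5 of 10 with Nop53, against 25.7% of all probe sets).

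Nop16 read 5.94, 6.29 and 6.66 on the wild type arrays, 6.26, 6.66 and 6.96 on those of Th3/+ and 6.71, 6.99 and 7.38 on those of Th3/Th3. The Th3/Th3 arrays were above wild type and overlapped Th3/+ (difference from wild type 0.73, SE 0.24, adjusted p = 0.0881). Pes1, Bop1 and Wdr12 form a complex needed to process the internal spacer of the large subunit precursor, and none of them was called (smallest adjusted p = 0.101). Wdr12 read 6.29, 6.24 and 6.54, then 6.26, 6.15 and 6.76, then 6.54, 7.17 and 7.18, so that the lowest Th3/Th3 array met the highest wild type array (difference 0.61, adjusted p = 0.101). A second Wdr12 probe set, with 0 of 20 neighbours on the gene's chromosome, differed by 0.83 (adjusted p = 0.0705). Pes1 read 6.81, 6.43 and 6.81, then 6.62, 7.06 and 6.87, then 7.15, 7.76 and 6.72, with 1 Th3/Th3 array inside the wild type range (difference 0.53, adjusted p = 0.222). Bop1 read 5.18, 5.14 and 5.18, then 5.13, 5.04 and 5.28, then 5.03, 5.18 and 5.36, spread around wild type (difference 0.02, SE 0.10, adjusted p = 0.924).

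Nop2, which methylates a cytosine of the large rRNA, read 6.65, 6.31 and 6.77 on the wild type arrays, 6.86, 6.95 and 7.12 on those of Th3/+ and 6.83, 6.83 and 7.26 on those of Th3/Th3. Both mutant genotypes lay above all wild type arrays and by the same amount, 0.40, but neither difference was called (adjusted p = 0.159 in Th3/Th3 and 1.00 in Th3/+). Rrp8, which methylates an adenine of the large rRNA, read 5.80, 5.84 and 5.71, then 5.88, 5.71 and 5.71, then 5.10, 5.56 and 5.71 (difference -0.33, adjusted p = 0.189). Rrp8 was the sole member within 10 Mb of the beta-globin genes, and its lowest value was again that of Th3/Th3 replicate 1. Rrp1b read 4.88, 4.67 and 4.67, then 4.67, 4.73 and 4.67, then 4.67, 4.67 and 4.39, near the lower limit of the filter (difference -0.16, adjusted p = 0.327). Rrp1 and Rrp15 differed from wild type by 0.17 and 0.07.

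Among 48 further large subunit factors that passed the filter, from a list of 55 of which 50 had a probe set, 11 rose and 0 fell, with a median of 0.29. The 11 are 22.9% of the list, beside 7.31% of all probe sets. Rsl24d1, a placeholder for a ribosomal protein of the large subunit, rose by 1.14 (SE 0.15, adjusted p = 0.00144). Nsa2 rose by 0.54 (adjusted p = 0.00232). Rpf2, which delivers the 5S particle, rose by 0.96, from 4.95 ± 0.14 to 5.91 ± 0.21 (SD, n = 3; adjusted p = 0.00616). Of 17 genes of the RNA exosome and of rRNA trimming, 2 rose (11.8%) and 0 fell. They were Exosc1, by 0.78, and Exosc10, a nuclear exonuclease, by 0.53 (limma adjusted p = 0.00697 and 0.0492). In the network of MYC, the best known activator of ribosome genes, Myc itself read 6.15 ± 0.72 in wild type and 6.71 ± 0.40 in Th3/Th3 (SD, n = 3; adjusted p = 0.321). Of the 10 genes of that network 2 rose and 1 fell: Mxd4, a MYC antagonist, by 1.53, Mga by 0.92, and Mxd1, another antagonist, fell by 0.79. Over all these lists 36 of 161 genes were higher and 5 lower (22.4% and 3.11%, beside 7.31% and 4.98% of all probe sets). Without the 2 arrays that stood apart, 51 were higher and 6 lower. The share of all probe sets in that setting is not reported here, so these counts cannot be set beside the shares above. With the RNA polymerase II, RNA polymerase III and MYC lists left out, 27 of 134 were higher and 4 lower (20.1% and 2.99%). Leaving out wild type replicate 1, 2 or 3 reduced the 41 calls over all lists to 27, 23 and 25. When the fit held Th3/Th3 and wild type alone, 27 were called. The lists were drawn up with earlier results of these data known, so these shares are descriptions.

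**Figure D4:**
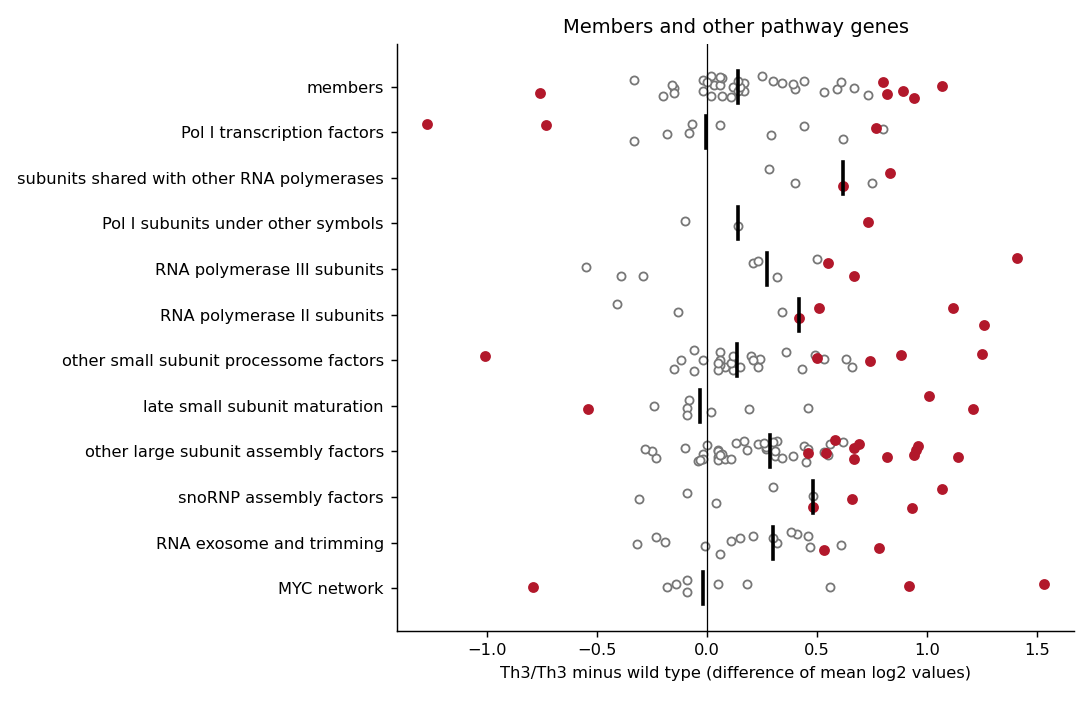
Th3/Th3 minus wild type (difference of mean log2 values) for the 39 genes and for each list of other pathway genes that passed the filter, 1 point per gene, red where the limma adjusted p was under 0.05, with the median as a bar. The members' median is 0.14, and the medians of the lists run from -0.03 (late small subunit maturation) to 0.62 (subunits shared by the polymerases).

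Th3/+ against wild type gave no called gene in the set (limma, smallest adjusted p = 1.00), where 0.0282% of all probe sets were called, and 1 gene, Nop2, had an unadjusted p under 0.05. The Th3/+ arrays lay wholly above wild type for 3 genes (Nop2, Npm1 and Utp23) and wholly below for 1 (Rrp36), where 4.40% and 3.22% of all probe sets did so. Some of these gaps were very narrow. Rrp36 read 6.73 on all 3 wild type arrays and 6.68 to 6.72 in Th3/+. For Npm1 the nearest values were 10.10 and 10.11, and for Utp23 both were 6.60 after rounding. Differences ran from -0.19 for Utp4 to 0.40 for Nop2, with a median of 0.05. For the 5 genes that rose in Th3/Th3, the Th3/+ differences from wild type were 0.23 (Nop53), 0.19 (Nop10), 0.18 (Utp11), 0.12 (Polr1d) and -0.04 (Polr1c), each with an SE of 0.13 to 0.17. For Dkc1 it was -0.06 (SE 0.19).

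Th3/Th3 against Th3/+ called the 5 genes that were higher than wild type and 0 others. That is 12.8% of the genes, where 4.01% of all probe sets were higher, 3.26% lower and 7.27% called in all. The arrays of these genotypes did not overlap for 6 genes that were higher, the 5 and Rrp36, and for 1 that was lower, Dkc1 (12.9% and 9.93% of all probe sets). Both comparisons share the Th3/Th3 arrays, so they are not independent of each other. Their count was 3 without Th3/+ replicate 1 (Nop53, Polr1c and Polr1d) or Th3/Th3 replicate 3 (the same 3 genes), 3 when the fit held these genotypes alone (Nop10, Nop53 and Polr1c), and 2 without both arrays that stood apart (Polr1c and Polr1d). Where Th3/+ fell relative to the midpoint of the other genotypes was tested as well, and 0 genes were called (0.0789% of all probe sets, 0.062% higher and 0.0169% lower; smallest adjusted p = 0.277 for Polr1c, 3 with an unadjusted p under 0.05). Polr1c in Th3/+ lay 0.49 below that midpoint (difference -0.49, SE 0.13), and Nop53 and Polr1d lay 0.31 and 0.34 below it (adjusted p = 0.576 and 0.596).

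**Figure D5:**
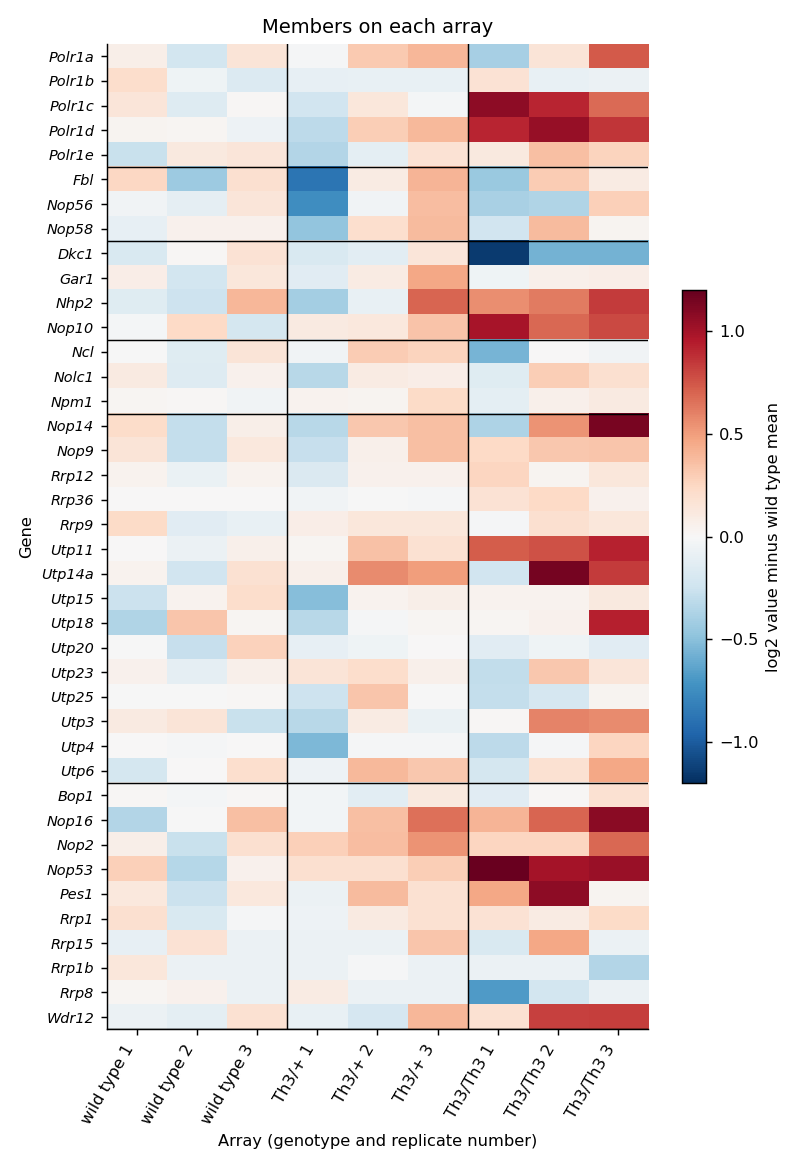
Log2 value of each of the 40 genes on each array minus its wild type mean, with genes in rows grouped by role and arrays in columns by genotype and replicate. Polr1c, Polr1d, Nop10, Utp11 and Nop53 are raised on all 3 Th3/Th3 arrays and Dkc1 is lowered on all 3, while the median over the genes was -0.02, 0.26 and 0.23 on Th3/Th3 replicates 1, 2 and 3.

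The identity and makeup of the sorted cells were read from markers. Erythroid markers were bright, with a mean log2 value over the list of 10.89 to 11.04 in wild type, 10.85 to 10.95 in Th3/+ and 10.08 to 10.35 in Th3/Th3. In Th3/Th3 10 of 13 fell and 0 rose, among them Tfrc, which encodes CD71 (by 1.12), and Alas2 of heme synthesis (by 0.66). The 10 are 76.9% of the markers tested. Of all probe sets 4.98% were lower and 7.31% higher. Early erythroid and progenitor markers averaged 4.80 to 4.86 in wild type and 4.61 to 4.78 in Th3/Th3, below the array medians of 4.97 to 5.05, and 0 of 6 were called. Macrophage markers averaged 5.35 to 5.58 in wild type, 5.29 to 5.84 in Th3/+ and 5.10 to 5.24 in Th3/Th3, with 3 of 12 lower (C1qb, Fcer1g and Tyrobp) and 1 higher (Hmox1, which erythroid cells also express). Of hepatoblast markers 0 of 9 were called, and of megakaryocyte markers 1 of 8 was lower. Lymphoid, granulocyte and mast cell, and endothelial and stromal markers had 0 called of 1, 5 and 4 that passed the filter, and 6, 4 and 4 did not pass it. The part of these shifts in the pathway's differences was not tested, and in bulk samples a change in the makeup of cells and a change of RNA per cell cannot be told apart.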

How the data were processed

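Values were the log2 values per probe set deposited by the authors, and the submitters' processing notes name MAS5 without a version. How background was corrected and probes were summarised is not given in the sources used. Some genes read the same value on several arrays after rounding, such as Rrp36 at 6.73 on all 3 wild type arrays. Rrp1b likewise read 4.67 on arrays of every genotype. How such ties arose was not tested, and they affect the spread and overlap of those genes. Array medians lay between 4.97 and 5.05, so values were used as deposited. A block of 6617 low identifiers, taken as controls, was left out of 35556. Of the other 28939 probe sets, 21789 have 1 symbol, 1621 several and 5529 are not listed in the platform annotation. Probe sets above the 40th percentile on at least 3 of 9 arrays were kept (17742), whatever their symbol. Shares over all probe sets therefore cover a wider kind than the members and list genes, each read from its brightest single-symbol probe set. What this does to the comparison of shares was not tested. Genotype means were estimated from the 9 arrays together in limma 3.58.1 (R 4.3.3; eBayes with trend; two-sided), with Benjamini-Hochberg adjustment over all kept probe sets and calls at an adjusted p under 0.05. P-values reflect only the spread among these samples. The labels call them biological replicates, and the spread may still hold technical variation. Arrays have no read depth, and their number limits precision. In data simulated for Th3/Th3 against wild type, 50 of 17742 probe sets were changed at each fold. Of these, 38.0% of 1.5-fold, 76.0% of 2-fold, 94.0% of 3-fold and 98.0% of 4-fold changes were recovered, with 13 false calls among 166. The data themselves gave 2181 calls. The adjustment was therefore stricter in the simulation, and these rates do not carry over to the data. The members, gene lists and tests were chosen with earlier results of these data known. Values on every array are given for called genes, the Polr1 genes, the 10 genes chosen by name and the 5 largest and 5 smallest remaining differences; other lists give up to 3 called genes, and genes named beyond this were chosen after their values were seen. Identifiers of all 43 probe sets of the 40 genes matched the GRCm38.p6 gene table, which also gave the chromosomes of neighbouring probe sets. Alternatives covered the filter, scaling, variance model, samples, probe sets, threshold and replicate block.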

Additional observations from a re-analysis of the deposited data

How the results depend on the processing

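The rises of Nop53, Polr1d, Polr1c, Nop10 and Utp11 in Th3/Th3 against wild type kept their calls under all 20 alternatives listed for these comparisons (differences of 0.69 to 1.22, highest adjusted p = 0.0279), and Dkc1 lost its call in 3. The other Polr1d probe set, an alternative chosen after seeing the data, was not called (0.43). The 6 calls became 11 without the 2 arrays that stood apart. The share of all probe sets called is not reported here for any alternative, so changes in these counts are descriptions only. Against Th3/+ the 5 calls became 3 when the fit held those genotypes alone, 2 without the 2 arrays, and 3 to 6 without 1 replicate each. The 41 calls over all the lists outside the rule became 27 with Th3/Th3 and wild type alone and 23 to 48 without 1 replicate each. The midpoint and Th3/+ against wild type comparisons gave 0 calls in every setting run, and the median difference of the genes in Th3/Th3 ran from 0.077 to 0.234.

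The causes of these changes were not tested. With the replicate block, 9 genes were called in Th3/Th3 against wild type (Nhp2, Nop16 and Wdr12 joined) and 7 against Th3/+. The labels do not say that a number marks a shared source. Deviations correlated above 0.1 in 6 of 9 same-numbered pairs (range -0.125 to 0.355), all of replicates 1 and 3, and in 4 of 18 others (-0.352 to 0.252). Deviations were taken from the mean of 3 arrays per genotype, so these correlations depend on each other. Whether the numbers mark pairs was not tested. Signs turned for 12 genes whose differences lay between -0.02 and 0.17, none of them called in either setting. Fbl went to 0.20 without the 2 arrays, 0.09 with the mean of its probe sets and 0.20 on its other probe set. Utp4 and Polr1b went to 0.12 and -0.08 without the 2 arrays. With quantile normalization Gar1 went to -0.03, Nop58 to -0.03, Utp15 to -0.01 and Utp23 to -0.04. Without 1 replicate each the ranges were -0.06 to 0.10 for Bop1, -0.24 to 0.20 for Fbl, -0.08 to 0.10 for Gar1, -0.10 to 0.21 for Nop58, -0.03 to 0.08 for Npm1, -0.12 to 0.45 for Polr1a, -0.08 to 0.11 for Polr1b, -0.13 to 0.20 for Rrp15, -0.06 to 0.17 for Utp15, -0.08 to 0.23 for Utp23, -0.17 to 0.12 for Utp4 and -0.01 to 0.32 for Utp6. Under the stricter filter 32 of the 39 genes were tested. Dim probe sets such as Polr1b and Utp20 sit near the filter limit, where changes are hard to resolve.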
